A study of Mus musculus with 6 samples.

Results

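Chemokine ligand genes and chemokine receptor genes were taken as a set from mouse lung RNA sequencing. The set holds the protein-coding genes whose GENCODE M21 symbols begin with Ccl, Cxcl, Ccr, Cxcr, Ccrl or Ackr and a digit, together with Cx3cl1, Cx3cr1 and Xcl1, with Ccl22 and Xcr1 left out by the rule. It came to 66 of the 55573 genes in the count table, 43 ligand genes and 23 receptor genes, and 49 of the 66 had enough counts to be tested. Cxcl11 and 2 Ccl19 pseudogenes were not included because M21 does not annotate them as protein-coding. All lungs came from wild-type C57BL/6 mice of 9 to 10 weeks. The CS group (3 libraries) had breathed cigarette smoke, with 2 daily sessions of 75 min, 5 days a week over 4 weeks. The SS-31H_CS group (3 libraries) had smoke plus SS-31, a peptide antioxidant that accumulates in mitochondria, at a daily dose of 5 mg/kg. Smoke exposure was thus common to both groups, and its schedule is given in the labels for the CS group alone. The comparison addresses what SS-31 does to airway inflammation during smoke exposure, the aim named in the series title. No smoke-free lungs were analysed here, so no value below says what smoke itself did.

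Chemokines are small secreted proteins that direct the migration of leukocytes through G protein-coupled receptors on the migrating cells. CXC ligands with an ELR motif act mainly on neutrophils through Cxcr2, most CC ligands act on monocytes, T cells, dendritic cells or eosinophils, and homeostatic ligands such as Cxcl12, Cxcl13 and Ccl21 place lymphocytes and other cells within tissue. Atypical receptors bind chemokines without the usual G protein signal, and several of them take up and degrade their ligands. In lungs exposed to smoke, the family is known for the recruitment of neutrophils and macrophages to the airways.

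The 6 libraries held between 15611925 and 17360052 counts. Levels of a gene in a library are given as CPM, its counts scaled to a common library size. A gene with 0 counts in a library could still be at up to 3 counts, or 0.172 to 0.185 CPM, by counting error alone. The epithelial genes Sftpc (11541 to 16103 CPM) and Scgb1a1 (18291 to 48062 CPM) were abundant in all 6 libraries, as lung tissue has them. CS replicate 3 stood apart within its group: the chi-square per degree of freedom over genes was 41.1 and 45.9 against its group mates and 7.56 between CS replicates 1 and 2. The 3 SS-31H_CS libraries differed from each other by 22.6 to 40.5 on the same measure. CS replicate 3 also had the lowest summed level of T and NK cell markers (79.7 CPM, against 161 to 354 CPM in the other libraries). Leaving out 1 library moved the log2 fold change of SS-31H_CS over CS by over 1.5 times, or changed its sign, in 41 of the 48 tested genes given here. The 7 others were Ackr2, Ccl11, Ccl27a, Ccr1, Ccr10, Cxcl15 and Cxcr6. Values without single libraries, or their range, stand beside the results or in the closing section. No label states that the libraries are of separate mice, so the p-values measure the spread between these libraries, which may in part be technical.

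Differences between the groups were small or uneven for most chemokine genes. Of the 49 genes tested, 0 passed an adjusted p of 0.05 in edgeR's quasi-likelihood test, in which 26 of all 16965 genes passed (0.153%). At an adjusted p under 0.1, 3 of the 49 passed, against 1.76% of all genes: the atypical receptor gene Ackr2, lower with SS-31, and the receptor gene Cxcr6 and the eotaxin gene Ccl11, both higher. At an unadjusted p under 0.05, 12 of the 49 (24.5%) passed, where 18.2% of all genes did. Of these, 6 were higher with SS-31 (12.2%, against 9.93% of all genes): Ccl11, Ccl20, Ccl27a, Cxcl12, Cxcl17 and Cxcr6. The other 6 were lower (12.2%, against 8.23%): Ackr2, Ccl6, Ccr1, Cxcl15, Cxcl2 and Cxcl3. The same shares of all genes, 9.93% higher and 8.23% lower, are the background of the marker list counts given below at this threshold.

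DESeq2, the other count test, gave adjusted p values under 0.05 to 6 of the 44 chemokine genes for which it gave one (13.6%, against 5.78% of all genes). Ackr2, Ccr1, Cxcl15 and Cxcl2 were lower (9.09%, against 2.46% of all genes) and Ccl11 and Cxcr6 higher (4.55%, against 3.32%). limma voom passed 0 of the 49, where it passed 6 of all genes (0.0354%). The CPM of all 3 libraries of a group lay beyond those of the other group in 10 of the 49 genes (20.4%), a smaller share than the 26.1% over all genes. A log2 fold change (SS-31H_CS over CS) of at least 1 in either direction was found for 11 of the 49 (22.4%), against 5.45% of all genes, and in most of these 1 library held the difference, as described below. The median log2 fold change was 0.18 over the 49 genes and 0.01 over all genes. Without SS-31H_CS replicate 2 it was -0.37, with 20 of 49 positive, so this library alone set the sign of the family's median. It was between 0.10 and 0.31 when any other single library was left out.

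**Figure D1:**
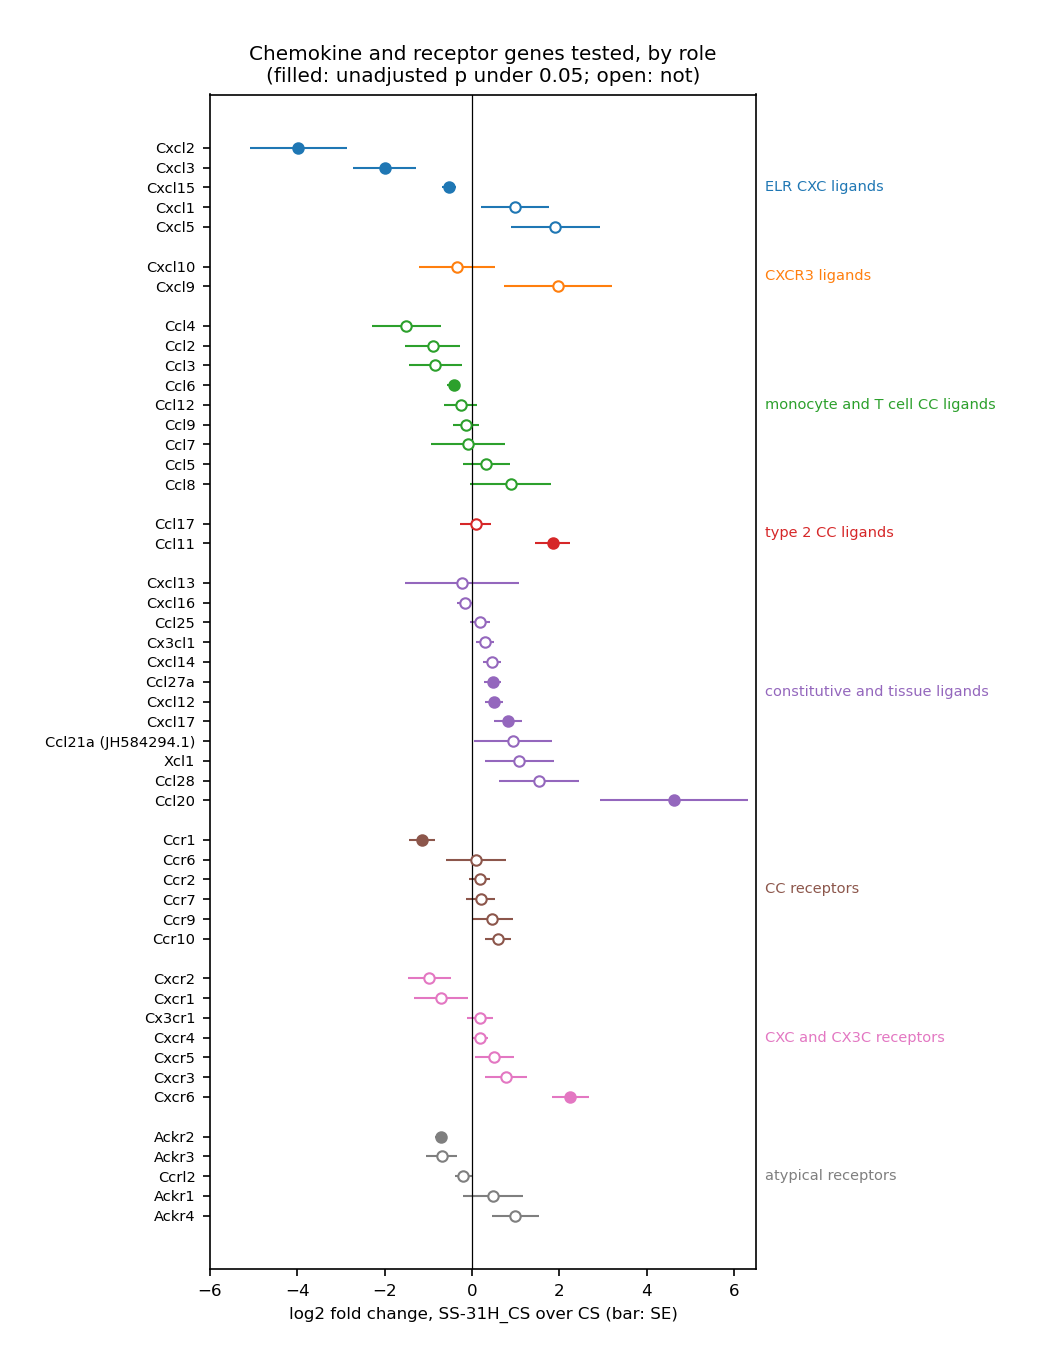
The log2 fold change of SS-31H_CS over CS (x axis) is plotted with its standard error (bar) for 48 of the 49 genes tested, grouped and coloured by role, and filled points mark an unadjusted p under 0.05. Cxcl2 at -3.98 and Ccl20 at 4.62 are the ends of the range, both with wide bars, while Ackr2 at -0.72 has the narrowest bar among the atypical receptors.

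Between genes, levels were compared by the deposited FPKM, fragment counts scaled by library size and transcript length. The highest mean FPKM over the 6 libraries belonged to Cxcl15 (267), a lung epithelial CXC chemokine. Ccl6, a CC chemokine of rodent macrophages, was at 86.7 FPKM, and the mucosal chemokine Cxcl17 was at 63.5 FPKM. Cxcl14, a constitutive epithelial and stromal chemokine, followed at 51.2 FPKM and Ccl5, made by T and NK cells among others, at 36.1 FPKM. The receptor genes with the highest levels were Cxcr4 (33.9 FPKM), Cxcr2 (29.9 FPKM) and Ackr2 (19.7 FPKM). Cxcl15 did not overlap Ccl6 in any library, since its lowest library (182 FPKM) lay above the highest of Ccl6 (120 FPKM). Ccl6 (72.4 to 120 FPKM) and Cxcl17 (37.7 to 130 FPKM) overlapped, as did Cxcl17 and Cxcl14 and also Cxcl14 and Ccl5. A mean of 10 FPKM was reached by 17 of the 66 genes and a mean of 1 FPKM by 43.

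**Figure D2:**
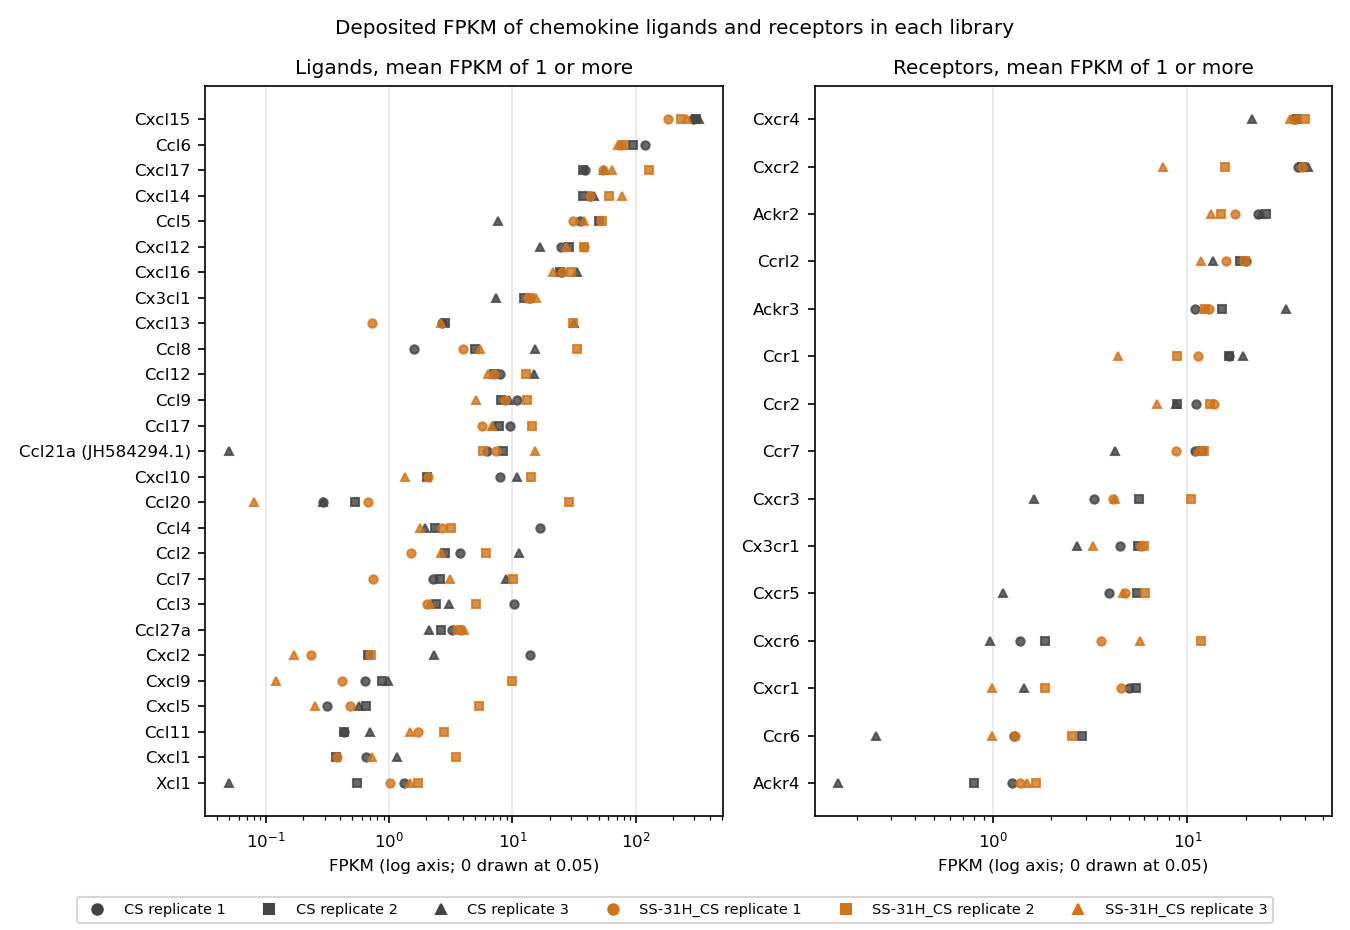
Deposited FPKM (log x axis, 0 drawn at 0.05) of ligand genes (left) and receptor genes (right) with a mean of at least 1, 42 of the 43 such genes, ordered by mean, with 1 point per library. Libraries lie close together for Cxcl15, Ccl6 and Cxcl16 and far apart for Cxcl13, Ccl20, Cxcl2 and Cxcl9.

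ELR CXC chemokines attract neutrophils. The set's 5 genes for them lie together on the plus strand of chromosome 5 in GRCm38, between positions 90759360 (Cxcl5) and 90905938 (Cxcl2). They did not move as a block: 3 were lower with SS-31 at an unadjusted p under 0.05 and 2 had positive log2 fold changes, with a median of -0.52. Cxcl15 measured 626, 654 and 738 CPM in the CS libraries and 385, 471 and 552 CPM in the SS-31H_CS libraries (here and below in the order of replicates 1, 2 and 3). The groups did not overlap, and the log2 fold change was -0.52 with a standard error (SE) of 0.16 (edgeR adjusted p = 0.165; DESeq2 adjusted p = 0.0321). Cxcl15 is made by lung epithelium, and of 8 alveolar type 2 cell markers 2 were lower and 0 higher at an unadjusted p under 0.05, with summed levels of 20054 to 22242 CPM in CS and 17699 to 23774 CPM in SS-31H_CS. The summed marker level overlapped between groups where Cxcl15 did not, and its part in the result was not tested.

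Cxcl2, a neutrophil attractant made rapidly by activated macrophages and neutrophils, was at 29.0, 1.38 and 5.00 CPM in the CS libraries and at 0.473, 1.41 and 0.353 CPM in the SS-31H_CS libraries. CS replicate 1 was 5.79 times the next library, and CS replicate 2 lay within the SS-31H_CS range. The log2 fold change was -3.98 (SE 1.11, edgeR adjusted p = 0.145; DESeq2 adjusted p = 0.0302), and it was -2.10 without CS replicate 1. Cxcl3, a close relative of Cxcl2, showed the same library on top, with 3.42, 0.802 and 0.864 CPM in CS and 0.236, 0.733 and 0.294 CPM in SS-31H_CS. The groups did not overlap, by a narrow gap between 0.802 and 0.733 CPM, or 14 and 12 counts. Its log2 fold change was -2.0 (SE 0.72, edgeR adjusted p = 0.213), and -0.98 without CS replicate 1.

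The other neighbours had another library on top. Cxcl1 was at 1.24, 0.688 and 2.28 CPM in CS and at 0.709, 6.23 and 1.35 CPM in SS-31H_CS. Cxcl5, an epithelial neutrophil attractant, was at 0.59, 1.20 and 1.11 CPM in CS and at 0.887, 9.59 and 0.47 CPM in SS-31H_CS. Both were highest in SS-31H_CS replicate 2, where Cxcl5 was 7.97 times the next library, and otherwise overlapped. Their log2 fold changes of 0.98 (SE 0.78) and 1.9 (SE 1.02) were -0.44 and -0.51 without that library.

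Stretches of the promoters of Cxcl1, Cxcl2, Cxcl3 and Ccl20 are shown because these genes share a pattern near the start and yet were highest in different libraries. Each is the 120 bases before the RefSeq start site (GRCm38.p6, plus strand), at chr5:90891125-90891244 for Cxcl1, chr5:90903779-90903898 for Cxcl2, chr5:90785981-90786100 for Cxcl3 and chr1:83116646-83116765 for Ccl20. Capitals mark matches on either strand to GGNNTTTCC, a form of the kappaB motif bound by NF-kappaB, a main inducer of inflammatory chemokine genes.
Cxcl1: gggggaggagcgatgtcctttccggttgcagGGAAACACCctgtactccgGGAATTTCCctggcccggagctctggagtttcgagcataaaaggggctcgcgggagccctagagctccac
Cxcl2: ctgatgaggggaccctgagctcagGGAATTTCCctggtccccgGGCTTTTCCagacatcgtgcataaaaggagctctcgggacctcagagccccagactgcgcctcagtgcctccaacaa
Cxcl3: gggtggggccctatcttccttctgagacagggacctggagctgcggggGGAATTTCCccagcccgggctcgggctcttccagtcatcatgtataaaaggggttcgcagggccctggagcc
Ccl20: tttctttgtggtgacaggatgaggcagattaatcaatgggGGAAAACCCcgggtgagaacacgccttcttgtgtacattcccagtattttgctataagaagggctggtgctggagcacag
Cxcl1 holds 1 match on the opposite strand, 89 to 81 bases before the start, and 1 on the same strand, 70 to 62 bases before it. The 2 matches in Cxcl2 begin 96 and 77 bases before the start, the match in Cxcl3 begins 72 bases before it, and the match in Ccl20, on the opposite strand, begins 80 bases before it. The letters GGAATTTCC occur in Cxcl1, Cxcl2 and Cxcl3 alike. In the 250 bases before the start, GGNNTTTCC was found in 10 of the 54 RefSeq promoters matched to 45 of the set's symbols (18.5%) and in 4.93% of all 32851 promoters. Beside the 4 genes shown, the promoters of Ackr4, Ccl9, Ccr3, Ccrl2, Cxcl10 and Cxcl9 held it. GAAANNGAA, a form of the interferon-stimulated response element, was found in 8 of the 54 (14.8%), those of the interferon-induced genes Cxcl9 and Cxcl10 among them, and in 7.13% of all promoters. Matches to these 2 patterns did not overlap in any of the set's promoters. TGANTCA, a form of the AP-1 motif, was found in 6 of the 54 (11.1%) and in 6.75% of all promoters. The forms were settled on after several had been tried, so these shares are a description, and a match is not a measured binding site. CS replicate 1 was the highest library for Cxcl2 and Cxcl3, and SS-31H_CS replicate 2 for Cxcl1 and Ccl20.

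The main receptor of these ligands was low in SS-31H_CS replicates 2 and 3. Cxcr2, carried by neutrophils, was at 115, 118 and 134 CPM in CS and at 117, 45.3 and 22.6 CPM in SS-31H_CS. SS-31H_CS replicate 1 lay inside the CS range and the other 2 far below it. This gave a log2 fold change of -0.98 (SE 0.49, edgeR adjusted p = 0.332), -1.85 when SS-31H_CS replicate 1 was left out and -0.59 when replicate 3 of that group was. Cxcr1, which also binds ELR CXC ligands, was at 7.55, 8.02 and 2.28 CPM in CS and at 6.80, 2.63 and 1.47 CPM in SS-31H_CS (log2 fold change -0.71, SE 0.61; -1.55 to -0.34 with single libraries left out). Its groups overlapped, with CS replicate 3 among the low libraries.

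Neutrophil markers had the same low libraries as Cxcr2. All 13 listed markers were tested, 2 were lower and 0 higher at an unadjusted p under 0.05, and none was at 0 in all libraries. Their median log2 fold change was -0.54, with 9 negative and 4 positive, the highest at 0.85. Their summed level was 2733 to 3932 CPM in CS, and 3879, 1974 and 598 CPM in SS-31H_CS replicates 1, 2 and 3. Csf3r, the receptor for the growth factor that drives neutrophil production, was 1 of the 2 lower markers. It was at 354 to 417 CPM in CS and at 354, 146 and 107 CPM in SS-31H_CS. The part of neutrophil number in the Cxcr2 and Cxcr1 values was not tested. In these bulk libraries, fewer cells of a type and less RNA per cell cannot be told apart.

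Among the interferon-induced ligands of Cxcr3, Cxcl9 was high in 1 library. It was at 1.95, 2.64 and 3.09 CPM in CS and at 1.24, 28.7 and 0.353 CPM in SS-31H_CS, with SS-31H_CS replicate 2 at 9.28 times the next library. Its log2 fold change of 1.97 (SE 1.24, edgeR adjusted p = 0.431) was -1.67 without that library. Cxcl10 was high in libraries of both groups, at 18.2, 4.53 and 26.1 CPM in CS and at 4.67, 30.7 and 3.0 CPM in SS-31H_CS (log2 fold change -0.35, SE 0.87; -2.08 to 0.16 with single libraries left out). Annotated exons of Cxcl10 overlap another gene over 5.91% of their length. Cxcr3, the receptor on T and NK cells, was at 5.78, 9.69 and 2.96 CPM in CS and at 7.15, 17.2 and 7.35 CPM in SS-31H_CS, a log2 fold change of 0.78 (SE 0.48, edgeR adjusted p = 0.421). It was 0.24 without SS-31H_CS replicate 2, 0.44 without CS replicate 3 and 1.27 without CS replicate 2. SS-31H_CS replicate 2 was thus highest for Cxcl9, Cxcl10 and Cxcr3 alike, and the groups overlapped for all 3.

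The monocyte-attracting CC ligands Ccl2, Ccl7 and Ccl12 lie in a run of genes on the plus strand of chromosome 11. The run goes from Ccl2 at 82035571 through Ccl7, the eotaxin gene Ccl11 and Ccl12 to Ccl8, which ends at 82116799. Ccl2, the main ligand of Ccr2, was at 4.31, 3.21 and 13.6 CPM in CS and at 1.71, 6.6 and 3.0 CPM in SS-31H_CS. Ccl7, a second Ccr2 ligand, was at 1.83, 2.06 and 7.53 CPM in CS and at 0.591, 7.70 and 2.47 CPM in SS-31H_CS. Ccl12, a rodent Ccr2 ligand, was at 4.31, 3.78 and 8.40 CPM in CS and at 3.78, 6.6 and 3.41 CPM in SS-31H_CS. CS replicate 3 and SS-31H_CS replicate 2 were the 2 highest libraries for all 3 of these genes, and also for Ccl8 (8.21 and 16.4 CPM, against 0.826 to 2.76 CPM in the other 4). With 1 such library in each group, the log2 fold changes were -0.90 (SE 0.63) for Ccl2, -0.09 (SE 0.84) for Ccl7, -0.26 (SE 0.38) for Ccl12 and 0.88 (SE 0.93) for Ccl8. Leaving out CS replicate 3 took Ccl2 to 0.00, Ccl7 to 0.87, Ccl12 to 0.18 and Ccl8 to 2.06. Leaving out SS-31H_CS replicate 2 took Ccl2 to -1.57, Ccl7 to -1.31, Ccl12 to -0.61 and Ccl8 to -0.69. Ccr2, the receptor of inflammatory monocytes, was at 75.5, 59.3 and 61.8 CPM in CS and at 91.9, 84.0 and 46.9 CPM in SS-31H_CS (log2 fold change 0.18, SE 0.24), and the groups overlapped.

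Farther along chromosome 11, between 83525778 and 83664683, lie Ccl5, Ccl9, Ccl6, Ccl3 and Ccl4. Ccl3, a ligand of Ccr1, was at 8.03, 1.83 and 2.47 CPM in CS and at 1.54, 3.73 and 1.65 CPM in SS-31H_CS. Ccl4, its neighbour and close relative, was at 11.3, 1.55 and 1.36 CPM in CS and at 1.77, 2.02 and 1.18 CPM in SS-31H_CS. Both were highest in CS replicate 1, by 2.15 and 5.59 times the next library, as Cxcl2 and Cxcl3 were. Their log2 fold changes of -0.84 (SE 0.60) and -1.51 (SE 0.79) were 0.09 and 0.18 without that library.

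Ccl5, a T cell and NK cell product, was at 34.8, 48.6 and 7.78 CPM in CS and at 29.6, 49.0 and 36.4 CPM in SS-31H_CS (log2 fold change 0.33, SE 0.53; -0.13 without CS replicate 3). CS replicate 3 was the low library for Ccl5, as for the T and NK cell markers. Ccl6, a Ccr1 ligand, was at 218, 169 and 148 CPM in CS and at 136, 136 and 130 CPM in SS-31H_CS. The groups did not overlap, and the log2 fold change was -0.42 (SE 0.15, edgeR adjusted p = 0.214), or -0.25 without CS replicate 1. Ccl9, another rodent Ccr1 ligand, overlapped between groups at 33.6, 24.7 and 30.0 CPM in CS and 26.6, 38.4 and 15.5 CPM in SS-31H_CS (log2 fold change -0.14, SE 0.29).

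Ccr1, the receptor for Ccl3, Ccl5, Ccl6 and Ccl9 on neutrophils, monocytes and macrophages, was lower in every SS-31H_CS library than in any CS library. It was at 47.2, 46.1 and 57.7 CPM in CS and at 32.2, 23.8 and 12.4 CPM in SS-31H_CS. The log2 fold change was -1.14 (SE 0.30, edgeR adjusted p = 0.134; DESeq2 adjusted p = 0.00458), and it ranged from -1.48 to -0.85 when single libraries were left out. SS-31H_CS replicate 3 was lowest for Ccr1, for Cxcr2 and for the neutrophil markers, while SS-31H_CS replicate 1, whose neutrophil markers (3879 CPM) lay within the CS range, also had Ccr1 below the CS range. Of 14 alveolar macrophage markers, all tested and none at 0 in all libraries, 7 were lower and 0 higher at an unadjusted p under 0.05. Their summed level was 2036 to 2438 CPM in CS and 998 to 1384 CPM in SS-31H_CS, with no overlap, as for Ccr1 and Ccl6. Of 12 monocyte and interstitial macrophage markers, all tested, 8 had positive and 4 negative log2 fold changes. At an unadjusted p under 0.05, 4 were higher and 0 lower. Their summed level was 1299 to 1437 CPM in CS and 1452 to 1812 CPM in SS-31H_CS, with no overlap. Their mean of log2(CPM + 0.5), minus that of all libraries, did overlap. It was -0.15 to -0.09 in CS and -0.29 to 0.40 in SS-31H_CS. The part of any of these cell types in the Ccr1, Ccr2 and Ccl6 values was not tested.

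**Figure D3:**
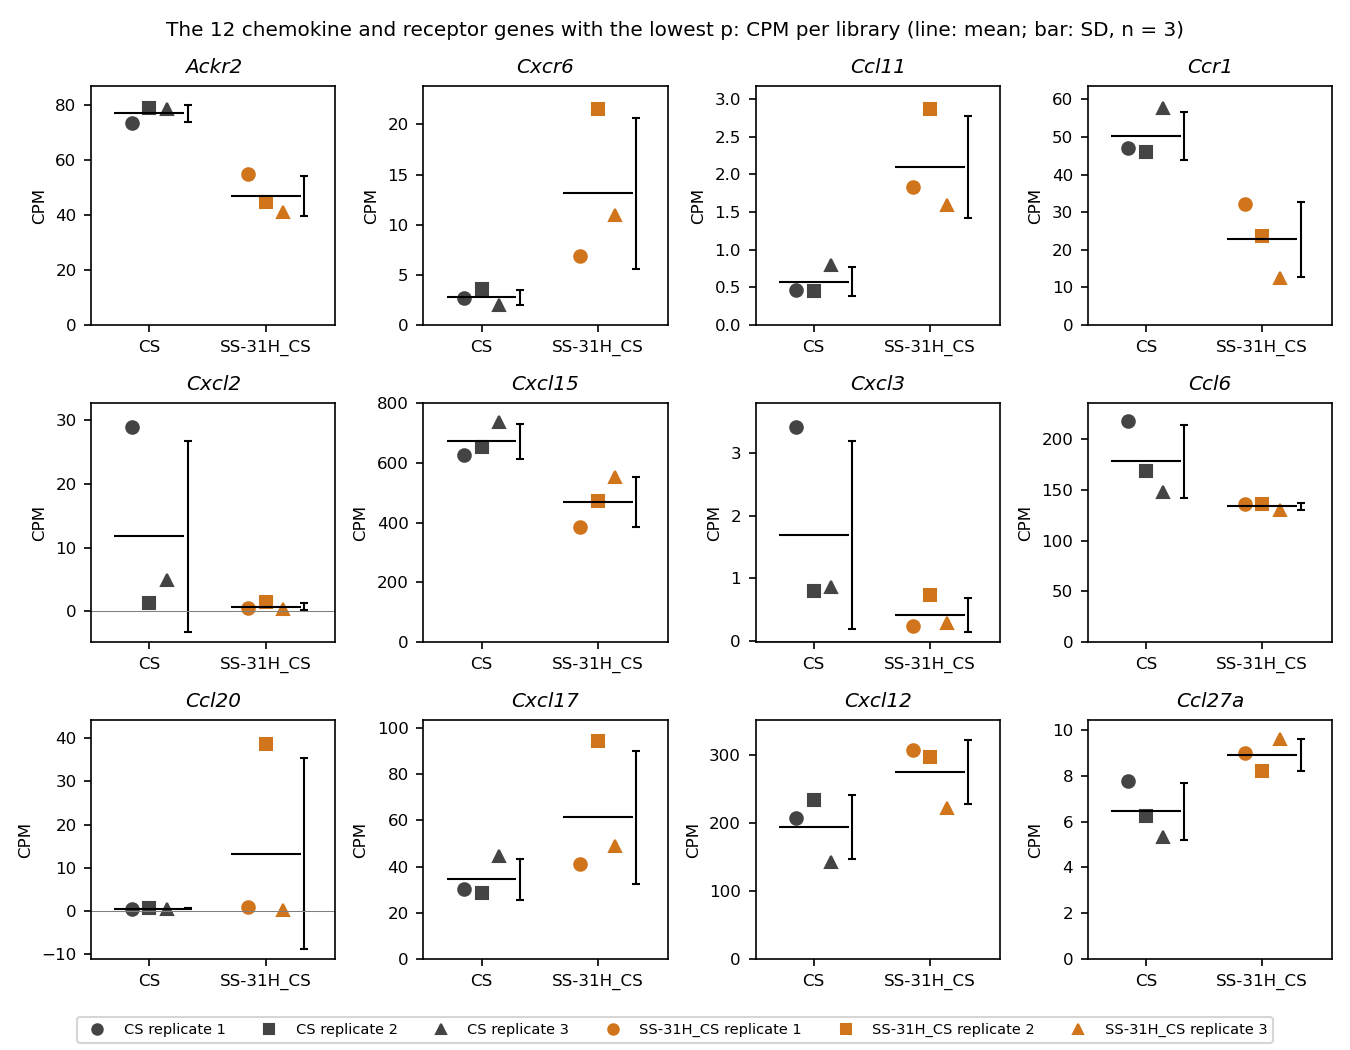
CPM per library (y axis) of the 12 chemokine and receptor genes with the lowest unadjusted p, by group, with the mean (line) and SD (bar, n = 3); a bar that reaches below 0 shows a spread larger than the mean. Ackr2, Cxcr6, Ccl11 and Ccr1 separate the groups in every library, whereas Cxcl2 rests largely on CS replicate 1 (29.0 CPM) and Ccl20 on SS-31H_CS replicate 2 (38.7 CPM).

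Among chemokines tied to type 2 immunity, Ccl11 (eotaxin), which recruits eosinophils through Ccr3, was higher with SS-31. It was at 0.472, 0.458 and 0.803 CPM in CS and at 1.83, 2.87 and 1.59 CPM in SS-31H_CS, or 8, 8 and 13 counts against 31, 47 and 27 counts. The groups did not overlap, although the level was low. Its log2 fold change (SS-31H_CS over CS) was 1.85 (SE 0.40, edgeR adjusted p = 0.0994; DESeq2 adjusted p = 0.0161) and ranged from 1.56 to 2.15 when single libraries were left out. Ccl11 lies between Ccl7 and Ccl12 on chromosome 11, and CS replicate 3, high for both of these, was the highest CS library for Ccl11 by 5 counts. Fibroblasts are a known source of Ccl11: of 9 fibroblast markers 2 were higher and 1 lower at an unadjusted p under 0.05, with summed levels of 2708 to 3449 CPM in CS and 3518 to 3951 CPM in SS-31H_CS. Those sums did not overlap, with a far smaller gap than that of Ccl11. The mean of log2(CPM + 0.5) over the 9 markers, minus that of the 6 libraries, did overlap. It was -0.05, -0.08 and -0.09 in CS and -0.08, 0.06 and 0.24 in SS-31H_CS, with 5 positive and 4 negative log2 fold changes. The part of fibroblast number in the Ccl11 values was not tested.

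Ccr3, the receptor for Ccl11, had 3, 4 and 1 counts in CS and 6, 9 and 0 counts in SS-31H_CS, too few to be tested. Of 8 mast cell, basophil and eosinophil markers, Epx, Fcer1a and Prg2 had too few counts to be tested as well. Of the 5 tested, 4 had positive log2 fold changes and 1 a negative one, with a median of 0.97. At an unadjusted p under 0.05 in edgeR, 1 of them was higher and 1 lower. Ccl17, a ligand of Ccr4 made by dendritic cells, was at 4.96, 4.01 and 3.77 CPM in CS and at 2.90, 7.09 and 3.53 CPM in SS-31H_CS (log2 fold change 0.08, SE 0.35; -0.40 without SS-31H_CS replicate 2). Ccr4 itself had 7, 6 and 7 counts in CS and 7, 37 and 5 counts in SS-31H_CS, so that only SS-31H_CS replicate 2 stood out. Ccl24 had 1 to 3 counts in CS and 1, 4 and 8 counts in SS-31H_CS, and Ccl26 had 0 counts in every library.

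Of the 12 constitutive and tissue ligand genes tested, 10 had positive log2 fold changes, as 8712 of all 16965 genes did. Their median was 0.49, against 0.01 over all genes, and 4 were higher at an unadjusted p under 0.05, where 9.93% of all genes were. Of the 10, only Ccl27a stayed within 1.5 times of its value whichever library was left out. Cxcl12, the stromal ligand that retains Cxcr4-bearing leukocytes, was at 207, 234 and 143 CPM in CS and at 308, 298 and 222 CPM in SS-31H_CS. The lowest SS-31H_CS library lay below the highest CS library, and the log2 fold change was 0.50 (SE 0.20, edgeR adjusted p = 0.249), or 0.32 without CS replicate 3. Its receptors differed in direction. Cxcr4 was at 65.0, 66.0 and 41.1 CPM in CS and at 65.0, 69.7 and 60.5 CPM in SS-31H_CS (log2 fold change 0.18, SE 0.18; -0.01 without CS replicate 3). Ackr3, the atypical receptor that removes Cxcl12, was at 37.2, 50.4 and 113 CPM in CS and at 42.9, 39.4 and 41.1 CPM in SS-31H_CS. Its log2 fold change of -0.70 (SE 0.36, edgeR adjusted p = 0.342) was -0.09 without CS replicate 3, the library that was highest for Ackr3 and lowest for Cxcl12 and Cxcr4.

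Cxcl17, a mucosal chemokine of airway epithelium, was at 30.2, 28.5 and 44.7 CPM in CS and at 40.9, 94.1 and 49.0 CPM in SS-31H_CS. SS-31H_CS replicate 2 was 1.92 times the next library, and the log2 fold change of 0.83 (SE 0.32, edgeR adjusted p = 0.231) was 0.38 without it. Of 9 club cell markers, 5 were higher and 0 lower at an unadjusted p under 0.05. Their summed level was 24775 to 30019 CPM in CS and 29038 to 63307 CPM in SS-31H_CS. The sum was highest in SS-31H_CS replicate 3, where Scgb1a1 alone was at 48062 CPM. The mean of log2(CPM + 0.5) over the 9 markers, minus that of the 6 libraries, gave another order. It was highest in SS-31H_CS replicate 2 (0.53) and lowest in SS-31H_CS replicate 3 (-0.45). The part of club cell number in the Cxcl17 values was not tested. Cxcl14 was at 79.7, 68.1 and 88.1 CPM in CS and at 77.6, 107 and 141 CPM in SS-31H_CS (log2 fold change 0.46, SE 0.21, edgeR adjusted p = 0.294; 0.22 without SS-31H_CS replicate 3). Ccl27a, an epithelial ligand of Ccr10, was at 7.79, 6.25 and 5.31 CPM in CS and at 8.98, 8.19 and 9.59 CPM in SS-31H_CS. These groups did not overlap (log2 fold change 0.47, SE 0.20, edgeR adjusted p = 0.270). Ccr10 did not overlap either, at 16, 19 and 17 counts in CS and 25, 27 and 26 counts in SS-31H_CS, or 0.944 to 1.09 CPM against 1.48 to 1.65 CPM (log2 fold change 0.59, SE 0.29, edgeR adjusted p = 0.323). Ccl28, the other Ccr10 ligand, had 8, 3 and 15 counts in CS and 5, 58 and 12 counts in SS-31H_CS, with SS-31H_CS replicate 2 on top again (log2 fold change 1.53; -0.05 without that library).

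Ccl20, an epithelial ligand that draws Ccr6-bearing lymphocytes and dendritic cells, had the largest positive log2 fold change of all genes tested, and it rested on 1 library. It was at 0.413, 0.745 and 0.432 CPM in CS and at 0.946, 38.7 and 0.118 CPM in SS-31H_CS, so that SS-31H_CS replicate 2 was 40.9 times the next library. The log2 fold change of 4.62 (SE 1.70, edgeR adjusted p = 0.220) was 0.00 without that library. Ccr6 was at 3.01, 6.59 and 0.617 CPM in CS and at 3.01, 5.62 and 2.29 CPM in SS-31H_CS (log2 fold change 0.09, SE 0.69), and its low library was CS replicate 3.

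Cxcl13, the follicular ligand that attracts B cells through Cxcr5, was high in 1 library of each group: 3.13, 3.21 and 38.3 CPM in CS and 0.828, 34.3 and 3.0 CPM in SS-31H_CS. Its log2 fold change of -0.23 (SE 1.30) turned to 1.99 when CS replicate 3 was left out and to -2.95 when SS-31H_CS replicate 2 was. Cxcr5 did not follow this pattern, at 13.3, 18.2 and 3.95 CPM in CS and 15.9, 19.3 and 15.5 CPM in SS-31H_CS (log2 fold change 0.51, SE 0.44; 0.10 without CS replicate 3). CS replicate 3 was the highest library for Cxcl13 and the lowest for Cxcr5. Ccr7, which brings T cells and dendritic cells to lymphoid tissue, was at 22.0, 23.5 and 8.83 CPM in CS and at 17.3, 22.9 and 22.3 CPM in SS-31H_CS (log2 fold change 0.20, SE 0.33; -0.13 without CS replicate 3). The 10 B and plasma cell markers, 1 higher and 0 lower at an unadjusted p under 0.05 and none at 0 in all libraries, summed to 399 to 531 CPM in CS and 519 to 616 CPM in SS-31H_CS. The mean of log2(CPM + 0.5) over these 10 markers, minus that of the 6 libraries, was lowest in CS replicate 3 (-1.54, against -0.05 and 0.27 in the other CS libraries). Of 9 dendritic cell markers, 4 were higher and 0 lower at an unadjusted p under 0.05, with a median of 0.56. They summed to 204 to 239 CPM in CS and 202 to 305 CPM in SS-31H_CS, with 7 positive and 2 negative log2 fold changes. Their mean of log2(CPM + 0.5), minus that of the 6 libraries, did not overlap. It was -0.29, -0.25 and -0.30 in CS and 0.06, 0.59 and 0.19 in SS-31H_CS. The part of B cell, T cell or dendritic cell number in the Cxcr5, Ccr6 and Ccr7 values was not tested.

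Ccl21, the lymphatic ligand of Ccr7, is annotated as 6 gene copies, and the counts of single copies are uncertain because reads may match several. The transcripts of Ccl21a and Ccl21b on chromosome 4 differ at 2 of 402 aligned bases, and those of Ccl27a and Ccl27b at 3 of 425. The sequences of the scaffold copies were not compared here. Nearly all Ccl21 counts were listed for the copy of Ccl21a on the unplaced scaffold JH584294.1, at 43, 58 and 0 counts in CS and 50, 36 and 103 counts in SS-31H_CS. Summed over the 6 copies, the counts were 48, 61 and 0 in CS and 53, 39 and 107 in SS-31H_CS, so CS replicate 3 again stood apart. A count of 0 there allows up to 0.185 CPM, against 2.38 to 6.29 CPM in the other 5 libraries. For the scaffold copy the log2 fold change was 0.93 (SE 0.89, edgeR adjusted p = 0.606), and leaving out replicate 3 took it to 0.35 (that of CS) or 0.39 (that of SS-31H_CS). Ccl19, the other Ccr7 ligand, also has a pseudogene whose 324 bases match its transcript without a difference, and its 2 annotated copies held 3 counts in all.

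The membrane-bound ligands and the receptor of fractalkine overlapped between groups. Cx3cl1 (fractalkine), tethered to endothelium and epithelium, was at 55.9, 48.4 and 30.3 CPM in CS and at 52.1, 52.4 and 60.5 CPM in SS-31H_CS (log2 fold change 0.29, SE 0.21; 0.07 without CS replicate 3). Cx3cr1, its receptor on patrolling monocytes and other leukocytes, was at 20.5, 25.0 and 12.8 CPM in CS and at 25.9, 25.7 and 14.6 CPM in SS-31H_CS (log2 fold change 0.18, SE 0.29). Both were lowest in the CS group in replicate 3. Cxcl16, which is also made as a membrane protein, was at 75.5, 73.4 and 106 CPM in CS and at 76.7, 86.4 and 63.7 CPM in SS-31H_CS (log2 fold change -0.17, SE 0.17, edgeR adjusted p = 0.633). Exons of Zmynd15 on the other strand cover 18.3% of its exon length, and without a stated strand setting the reads of the 2 genes cannot be told apart there.

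Cxcr6, the receptor for Cxcl16 on tissue-resident T and NK cells, was higher with SS-31 while its ligand was not. It was at 2.71, 3.55 and 1.98 CPM in CS and at 6.92, 21.5 and 11 CPM in SS-31H_CS, or 46, 62 and 32 counts against 117, 352 and 187 counts. The groups did not overlap, and the lowest SS-31H_CS library was well above the highest CS library. The log2 fold change was 2.25 (SE 0.43, edgeR adjusted p = 0.0841; DESeq2 adjusted p = 1.15e-05), and it ranged from 1.70, when SS-31H_CS replicate 2 was left out, to 2.55, when replicate 1 of that group was. Of the 17 T and NK cell markers, all tested and none at 0 in all libraries, 12 had positive log2 fold changes with a median of 0.64, and 0 passed an unadjusted p of 0.05 in either direction. Their summed level overlapped, at 205, 269 and 79.7 CPM in CS and 161, 354 and 212 CPM in SS-31H_CS. SS-31H_CS replicate 1 had a lower summed T and NK cell marker level than CS replicates 1 and 2 and more Cxcr6 than either. Single markers differed in this. Gzma was at 18.4 CPM in SS-31H_CS replicate 1, against 39.2 and 52.4 CPM in CS replicates 1 and 2. Gzmb, Nkg7, Lck and Trac were below both CS libraries as well. Cd3e, Cd8a and Trbc2 lay between the CS libraries, and Cd4, at 9.28 CPM, was above both (6.55 and 9 CPM). The part of T and NK cell number in the Cxcr6 and Cxcr3 values was not tested. Xcl1, a product of activated T and NK cells, had 12, 5 and 0 counts in CS and 9, 14 and 13 counts in SS-31H_CS (log2 fold change 1.08, SE 0.79; 0.52 without CS replicate 3 and 2.22 without CS replicate 1), and other genes overlap 18.7% of its exon length.

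**Figure D4:**
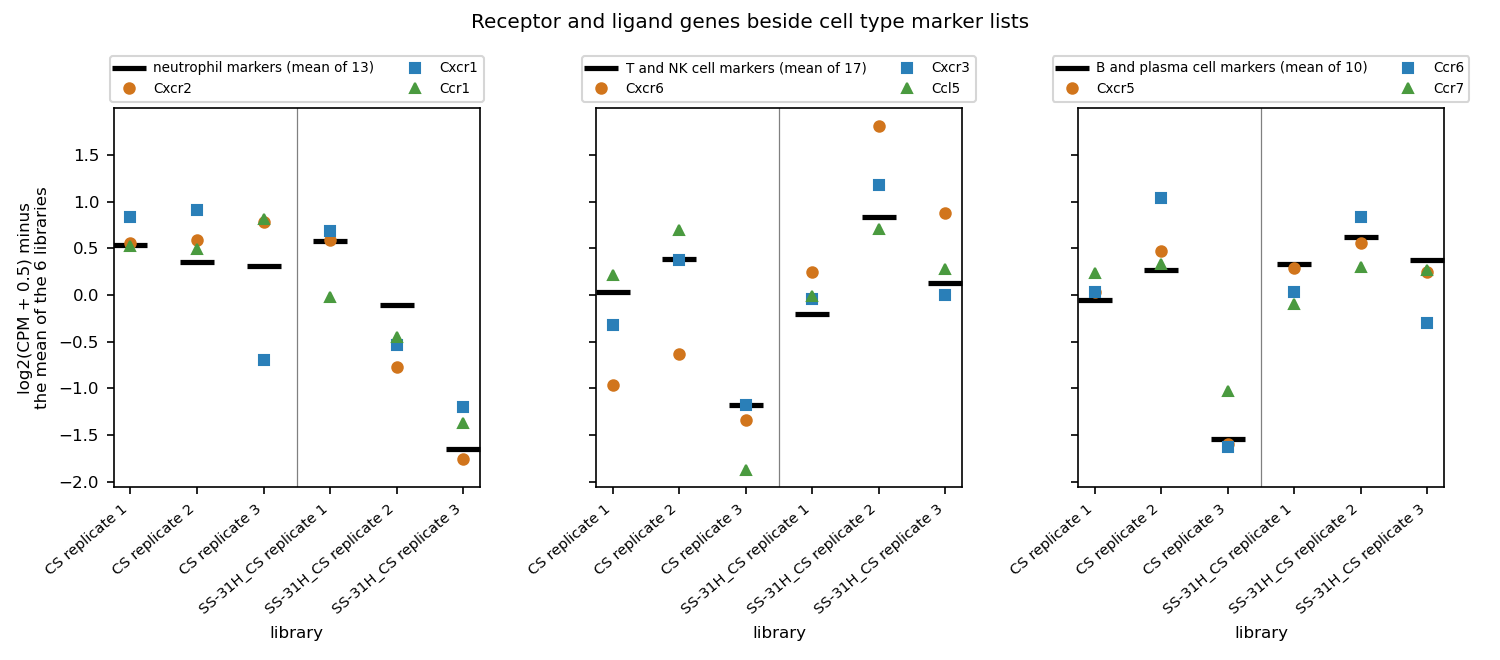
For each library (x axis), log2(CPM + 0.5) minus the mean of the 6 libraries is shown for cell type markers (black bars, mean of the list) and for receptor and ligand genes (coloured points). Cxcr2 follows the neutrophil markers down in SS-31H_CS replicate 3, Cxcr6 is below the T and NK cell markers in all 3 CS libraries and above them in all 3 SS-31H_CS libraries, and Cxcr5 and Ccr6 follow the B and plasma cell markers down in CS replicate 3.

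Of the 5 atypical receptors, Ackr2 had the lowest edgeR p of the whole set, while Cxcr6 had the lowest with DESeq2. This receptor takes up and degrades inflammatory CC chemokines, among them Ccl2, Ccl3, Ccl5 and Ccl11. It was at 73.5, 78.9 and 78.5 CPM in CS and at 54.9, 44.6 and 41.1 CPM in SS-31H_CS, with means of 77.0 ± 3.02 and 46.8 ± 7.15 CPM (SD, n = 3). The groups were far apart for their spread and did not overlap. Its log2 fold change was -0.72 (SE 0.13), or 1.64-fold lower, with an edgeR adjusted p of 0.0800 and a DESeq2 adjusted p of 0.000526, and it ranged from -0.85 to -0.63 when single libraries were left out. Ackr2 (ENSMUSG00000044534) lies on the plus strand of chromosome 9 at 121898355 to 121911074 in GRCm38, and no other annotated exon overlaps its own.

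Lymphatic endothelium is the best known site of Ackr2. Of 6 lymphatic endothelium markers, 5 were tested, 4 had negative log2 fold changes, 3 were lower and 0 higher at an unadjusted p under 0.05, and Pdpn was at 0 in all libraries. The annotation release behind the counts is not given, so the 0 for Pdpn was not read as absence of its RNA. The summed level of the markers was 361 to 629 CPM in CS and 211 to 287 CPM in SS-31H_CS, most of it Lyve1, which macrophages also express. The mean of log2(CPM + 0.5) over the 5 tested markers, minus that of the 6 libraries, overlapped. It was 0.00, 0.08 and 0.40 in CS and -0.42, 0.06 and -0.12 in SS-31H_CS. Prox1, the transcription factor that defines lymphatic endothelium, was at 0.885, 1.09 and 1.79 CPM in CS and at 0.828, 2.81 and 2.12 CPM in SS-31H_CS, and its log2 fold change of 0.61 was the only positive one of the 5. Mmrn1, another lymphatic marker, was lower without overlap, at 18.5, 20.8 and 22.7 CPM in CS and at 15, 17.1 and 16.2 CPM in SS-31H_CS (log2 fold change -0.36, edgeR adjusted p = 0.232). CS replicate 3 was the highest library for Lyve1 (527 CPM, against 255 and 235 CPM in the other CS libraries). Ackr2 was at 78.5 CPM in CS replicate 3 and at 73.5 and 78.9 CPM in CS replicates 1 and 2. Of 8 venous and other vascular endothelium markers, all tested, 5 were lower and 0 higher at an unadjusted p under 0.05, and all 8 had negative log2 fold changes with a median of -0.47. Their summed level was 4213 to 5209 CPM in CS and 2858 to 3830 CPM in SS-31H_CS, with no overlap, as for Ackr2. The part of either endothelium in the Ackr2 values was not tested.

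The other atypical receptors overlapped between groups or rested on CS replicate 3. Ackr4, which removes Ccl19, Ccl21 and Ccl25, was at 6.85, 4.30 and 0.926 CPM in CS and at 7.39, 8.56 and 8.06 CPM in SS-31H_CS. The groups did not overlap, but the log2 fold change of 0.99 (SE 0.54, edgeR adjusted p = 0.372) was 0.52 without CS replicate 3. Exons of Acad11 on the other strand cover 8.9% of the exon length of Ackr4. Ccrl2, which binds chemerin, was at 53.0, 48.3 and 37.0 CPM in CS and at 40.8, 49.3 and 30.5 CPM in SS-31H_CS (log2 fold change -0.20, SE 0.20; -0.37 to -0.04 with single libraries left out). Ackr1, a chemokine-binding protein of venules and red cells, had 3, 5 and 17 counts in CS and 7, 18 and 10 counts in SS-31H_CS (log2 fold change 0.48, SE 0.69), with 25.7% of its exon length shared with Cadm3 on the same strand. None of these 3 genes passed the unadjusted threshold. The gut-homing receptor gene Ccr9 (log2 fold change 0.46, SE 0.47, and -0.13 without SS-31H_CS replicate 2) did not pass it either. Nor did its ligand gene Ccl25 (0.18, SE 0.22, and 0.08 to 0.32 with single libraries left out). Other genes overlap 21.5% of the exon length of Ccr9.

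The receptor genes on chromosome 9 showed that neighbours need not share a direction. From Ccr9 at 123678439 to the end of Ccr2 at 124113557 lie Ccr9, Cxcr6, Ccr1, Ccr1l1, Ccr3 and Ccr2. Cxcr6 was higher (log2 fold change 2.25) and Ccr1 lower (-1.14), while Ccr2 (0.18) lay near 0 and Ccr1l1 and Ccr3 had too few counts to be tested.

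Many of these genes were highest in the same library. SS-31H_CS replicate 2 was the highest of the 6 libraries for 23 of the 49 genes (46.9%), against 16.8% of all genes, and the lowest for 0 of the 49, against 16.1% of all genes. It was at least 3 times the next library for Ccl20, Ccl28, Cxcl5 and Cxcl9, 4 of the 49 (8.16%), against 0.212% of all genes. CS replicate 1 was at least 3 times the next library for Ccl4, Cxcl2 and Cxcl3, 3 of the 49 (6.12%) and 3 of the 7 such genes among all tested (0.0413%). CS replicate 3 was lowest for 16 of the 49 (32.7%, against 28.7% of all genes), among them Ccl5, Ccr6, Ccr7, Cxcr3, Cxcr4, Cxcr5, Cxcr6 and Xcl1. SS-31H_CS replicate 3 was lowest for another 16 (32.7%, against 19.5%), among them Ackr2, Ccr1, Cxcr1, Cxcr2, Cxcl9 and Cxcl10. Genes of 1 family can vary together, so these shares describe the libraries and were not tested.

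**Figure D5:**
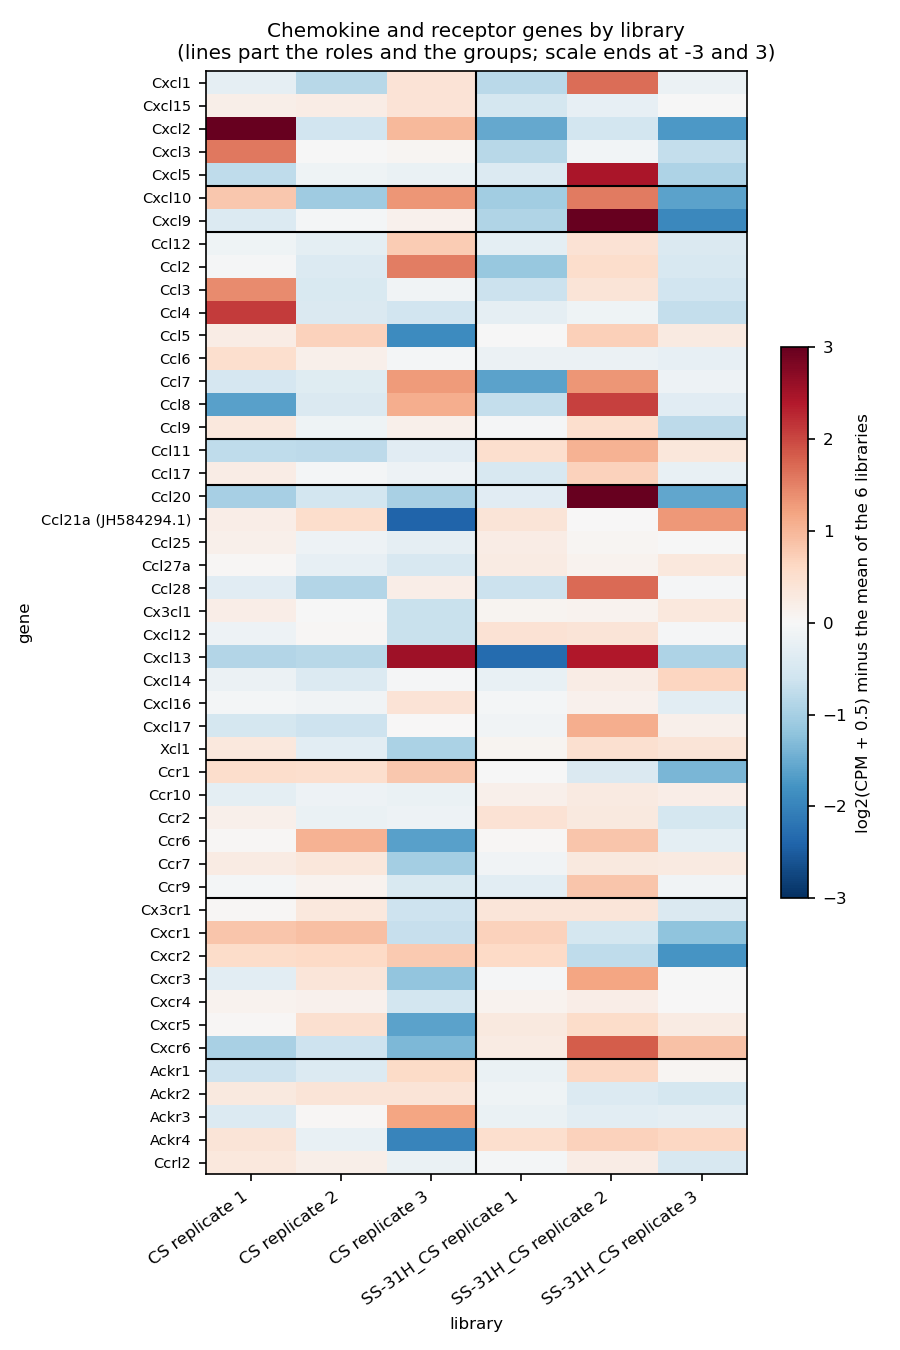
Each cell of the map shows log2(CPM + 0.5) minus the mean of the 6 libraries for 1 gene (rows, 48 of the 49 tested, parted by role) in 1 library (columns), red above and blue below that mean. The darkest red cells are Cxcl2 in CS replicate 1 and Cxcl9 and Ccl20 in SS-31H_CS replicate 2, and the column of SS-31H_CS replicate 2 has the highest median over the 49 genes (0.43, against -0.24 to 0.03 in the other 5).

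Genes that act downstream of or beside the chemokines were read from 3 further lists. At an unadjusted p under 0.05, 9.93% of all genes were higher and 8.23% lower, the background of the counts in these lists. Of 41 chemokine signalling genes, all tested, 3 were higher and 1 lower at an unadjusted p under 0.05, with 9 positive and 32 negative log2 fold changes and a median of -0.17, where 8712 of all 16965 genes were positive and the median was 0.01. Tiam1, an exchange factor for Rac, was at 17.9, 17.9 and 17.8 CPM in CS and at 29.0, 27.7 and 31.5 CPM in SS-31H_CS (log2 fold change 0.72, SE 0.11, edgeR adjusted p = 0.0646). It had the lowest p of the list. Grk5, a kinase that desensitises G protein-coupled receptors, had a log2 fold change of -0.66 (SE 0.15, edgeR adjusted p = 0.101). Rgs2, a regulator of G protein signalling, had one of 0.83 (SE 0.22, edgeR adjusted p = 0.137). The platelet chemokine genes Pf4 (-0.18, SE 0.22) and Ppbp (-0.51, SE 0.49) did not pass the unadjusted threshold.

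Of 13 receptors for other chemoattractants, 4 were lower and 0 higher at an unadjusted p under 0.05 (8.23% and 9.93% of all genes), with a median of -0.51. The lowest p values belonged to S1pr1, which guides lymphocyte exit and endothelial barrier function (log2 fold change -0.83, SE 0.16, edgeR adjusted p = 0.0808), to the chemerin receptor Cmklr1 (-0.73, SE 0.16, edgeR adjusted p = 0.101) and to the formyl peptide receptor Fpr2 (-1.01, SE 0.37, edgeR adjusted p = 0.217). S1pr1 is a gene of endothelium, whose vascular markers were lower as well (summed level 2858 to 3830 CPM in SS-31H_CS, against 4213 to 5209 CPM in CS), and their part in its value was not tested. Fpr2 and C5ar1 (-0.76, SE 0.31) are receptors of neutrophils and macrophages, as Cxcr2 and Ccr1 are. Of 30 cytokines and regulators known to induce chemokines, 23 were tested, 2 were higher and 1 lower at an unadjusted p under 0.05, with a median of -0.15. The interleukin gene Il4 (1.02, SE 0.33, edgeR adjusted p = 0.179) and the lymphotoxin gene Ltb (0.91, SE 0.31, edgeR adjusted p = 0.199) were higher, and Il1b (-1.13, SE 0.43, edgeR adjusted p = 0.236) was lower. Tnf (0.52, SE 0.59) and the NF-kappaB subunit genes Nfkb1 (0.04, SE 0.11) and Rela (-0.06, SE 0.13) did not pass the unadjusted threshold.

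The 17 genes not tested had few counts in most libraries. Of these, 5 had 0 counts in every library: Ccl26, Ccl21c, the chromosome 4 and JH584293.1 copies of Ccl21b and the JH584294.1 copy of Ccl27. Ccl1, a ligand of Ccr8, had 0 counts in 5 libraries and 7 counts in SS-31H_CS replicate 2. Ccr8, a receptor of T cells, had 5, 8 and 9 counts in CS and 9, 25 and 6 counts in SS-31H_CS. Ccl1, Ccr4 and Ccr8 were thus all highest in SS-31H_CS replicate 2, at levels too low to test. Ccr1l1 had 1 count in CS replicate 1 and 3 counts in SS-31H_CS replicate 3, and the copies of Ccl19, Ccl21 and Ccl27 not named above had at most 4 counts in any library.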

How the data were processed

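Lung RNA from 6 libraries was compared between the 2 groups that the labels give. The files deposited by the authors give raw counts of reads for each Ensembl gene, without normalization, and FPKM. Per the submitters' processing notes, cutadapt 1.9.1, HISAT2 2.0.1, HTSeq 0.6.1 and GRCm38 were used; annotation release and strand setting are not given in the sources used here. Over 3310 abundant genes, the ratio of FPKM to count changed between libraries as their totals did, to within 0.244%, so the deposited FPKM hold no other scaling.

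Ensembl identifiers were matched to GENCODE M21 (55480 of 55573). Counts were fitted by edgeR 4.0.16 (R 4.3.3) with TMM factors, its low-count filter (minimum count 10, minimum total 15), a two-sided quasi-likelihood test and Benjamini-Hochberg adjustment over all 16965 genes. CPM use TMM-scaled library sizes. The test was checked on simulated data. Alternatives were DESeq2 1.42.0, limma 3.58.1 (voom, and trend on log2(FPKM + 1) or log2(FPKM + 0.1) at a mean FPKM of 0.5 or more), RLE factors, library size alone, robust dispersion, no filter, 1 CPM in 3 libraries, an adjusted p under 0.1, a replicate block, each library left out, and replicate 3 of both groups left out. Leaving out CS replicate 1 with SS-31H_CS replicate 2 was added after seeing the data. No set test was run. Genes named with values are the 12 with the lowest p, a fixed list of family members and up to 3 per other list; Csf3r, Prox1, Lyve1, Mmrn1 and further list genes were chosen after their values were seen. Of the tested set, 1 gene was counted in all totals and is not reported here by itself. The members and lists were chosen with earlier results of these data known.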

Additional observations from a re-analysis of the deposited data

How the results depend on the processing

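Of 896 values for 48 tested chemokine and receptor genes under the alternatives, 832 kept their direction and their side of the 0.05 threshold, 11 passed it and 53 changed sign, in 25 genes; the other 23 genes, Ackr2, Cxcr6, Ccl11, Ccr1, Cxcl2, Cxcl15 and Cxcl12 among them, kept their sign throughout. The genes called among all tested, 26 as reported, were 941 with DESeq2, 648 without a low-count filter, 12 with library size alone, 6 with voom, 6, 5 and 4 with log2(FPKM + 1), log2(FPKM + 0.1) and log2(FPKM + 1) unfiltered, 299 at an adjusted p under 0.1, 0 without CS replicate 1 and SS-31H_CS replicate 2, and 1 to 15 with single libraries left out. The chemokine and receptor genes called, 0 as reported, were 6 with DESeq2, 5 without a filter (Ackr2, Ccl11, Ccr1, Cxcl2 and Cxcr6) and 3 at an adjusted p under 0.1, and the cause was not tested. Their median of 0.18 ran from -0.37 to 0.31 with single libraries left out and was -0.28 without CS replicate 1 and SS-31H_CS replicate 2. Libraries of the same replicate number showed no shared deviation (correlations of deviations 0.007, 0.036 and -0.057), which cannot show whether the samples were paired. With a replicate block 0 genes and 0 chemokine genes were called. Other log2 fold changes that changed sign were Ccl7 with library size alone (0.01), and Ccl17 (-0.02) and Cxcl9 (-0.11) with voom. Without CS replicate 1 and SS-31H_CS replicate 2 they were Ackr1 (-0.41), Ccl17 (-0.29), Ccl20 (-0.17), Ccl28 (-0.13), Ccl4 (0.01), Ccl8 (-1.18), Ccr9 (-0.09), Ccr6 (-0.46), Cxcl1 (-0.53), Cxcl5 (-0.78) and Cxcl9 (-1.85), while Ccl7 moved to -1.65, Ccl12 to -0.77 and Cxcl13 to -3.45. Without replicate 3 of both groups they were Ccl2 (0.14), the scaffold copy of Ccl21a (-0.19), Ccl5 (-0.09), Ccl7 (1.08), Ccl9 (0.15), Ccl12 (0.36), Ccr6 (-0.16), Ccr7 (-0.18), Cxcl10 (0.63), Cxcl13 (2.46) and Cxcl16 (0.13). With single libraries left out, those that changed sign or reached 0 ran from 0.00 to 1.55 for Ackr1, -1.57 to 0.00 for Ccl2, -0.69 to 2.06 for Ccl8, -0.61 to 0.18 for Ccl12, 0.00 to 5.19 for Ccl20, -0.05 to 2.20 for Ccl28, -0.13 to 0.72 for Ccr9, -1.37 to 0.09 for Ccl3, -1.95 to 0.18 for Ccl4, -0.13 to 0.84 for Ccl5, -1.31 to 0.87 for Ccl7, -0.49 to 0.14 for Ccl9, -0.40 to 0.31 for Ccl17, -0.01 to 0.42 for Ccr2, -0.40 to 0.99 for Ccr6, -0.13 to 0.43 for Ccr7, -0.05 to 0.41 for Cx3cr1, -0.44 to 1.51 for Cxcl1, -0.51 to 2.42 for Cxcl5, -1.67 to 2.54 for Cxcl9, -2.08 to 0.16 for Cxcl10, -2.95 to 1.99 for Cxcl13, -0.28 to 0.02 for Cxcl16 and -0.01 to 0.29 for Cxcr4. With 1 library left out, the remaining 2 of its group are assumed to vary like the other group. Counts under about 10 per library, as for Ccr3, Ccl24 and Ccl1, do not allow a difference to be seen at this depth.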
